A study of Sparassis latifolia with 15 samples.

Results

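Chromatin that was more open in primordia than in dark mycelium was recorded at 1768 regions of the *Sparassis latifolia* genome, out of 3680 regions listed as different between both stages and 4187 listed in the whole study. These gained peaks were the complete list that the authors gave for higher accessibility in primordia, and no peak was added or removed here. The authors chose them by thresholds on fold change and p. The methods give p below 0.05 and name no correction for multiple testing of peaks, so a single listed region need not differ. Their median width was 1319 bp, and 54.9% of them had another gained peak as the numbered region directly before or after them on the contig. Most of them, 1652 peaks or 93.4%, touched no region listed as changed after 1 h of light, where only 3.97% of numbered regions were listed. The same held for 92.2% of the peaks lost in primordia. The other gained peaks lay over regions also listed as changed after 1 h of light, 73 over gained and 43 over lost chromatin.

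*S. latifolia*, the cauliflower mushroom, is a brown-rot fungus that grows as mycelium on conifer wood and makes fruiting bodies after exposure to light. Strain SP-C was grown in cultivation bags and sampled as mycelium kept in darkness (D, day 28 by the sample labels), as such mycelium after 1 h of white light (L, day 30 by the labels, although the methods describe it as taken from D) and as primordia (P, day 42), which formed when dark-grown mycelium was moved to daily periods of light and dark for 2 weeks. All 3 groups are cultures of this 1 strain, and the labels name no drug or genetic change. P differed from D in age, light and tissue at the same time and these cannot be told apart. ATAC-seq was run on 2 biological replicates of each group and RNA-seq on 3.

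A primordium is the first compact knot of hyphae from which a fruiting body develops, and in many mushrooms it forms only when light, temperature and air are right. In ATAC-seq a transposase cuts and tags DNA that is not wrapped in nucleosomes, so that stretches with many reads mark accessible chromatin, which is typical of promoters and other regulatory DNA. A primordium contains several kinds of hyphae, and in such bulk samples a region open in more of the nuclei and a region more open in each nucleus cannot be told apart; the same holds for RNA per cell and the number of cells that make it. The peak lists hold contig, start, end, number and score, with no value for a library, so the spread between replicates could not be given for any peak and no test was made on the peaks. No DNA sequence or gene model of SP-C was used, and peaks are named by contig and position in the SP-C assembly of the authors, counted from base 1.

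The gained peaks covered 2724 kb, which was 6.22% of the span known from the lists, taken as the sum over contigs of the distance to the end of the last listed peak. Their widths ran from 188 to 6823 bp, and the quartiles were 678 and 2105 bp. The 1912 peaks lost in primordia were narrower, with a median of 490 bp and quartiles of 313 and 933 bp, and covered 1550 kb. Peaks wider than 2000 bp made up 27.4% of the gained list (484 peaks) and 7.17% of the lost list (137 peaks). Peaks narrower than 300 bp made up 7.35% of the gained list (130 peaks) and 22.2% of the lost list (424 peaks). The class from 1000 to 2000 bp was the fullest among the gained peaks, with 618 peaks or 34.95%. Both lists come from the same contrast, so this is a description of how the lists differ.

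The score is a value the authors gave to each peak in a unit not stated in the sources used here, and it is read below only as a rank of peaks, not as the size of a change. Scores of gained peaks ran from 1.55 to 2265 with a median of 31.1 and quartiles of 11.7 and 59.5. Lost peaks had a median of 4.38 and a maximum of 2556. Score rose with width, from a median of 3.99 in the 130 peaks under 300 bp to 38.0 between 1000 and 2000 bp and 81.1 in the 20 peaks of 5000 bp or more. The rank correlation of width and score was 0.712 over the 1768 gained peaks and 0.585 over the lost peaks, a description over regions that share the same libraries. Scores above 100 were held by 159 peaks (8.99%), which had a median width of 2379 bp. Scores under 5, the weak end of the list, were held by 172 peaks (9.73%) with a median width of 305.5 bp.

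The highest scores did not belong to the widest peaks. The 2 highest, 2265 and 2152, were peaks of 923 and 1034 bp at the very start of 2 contigs. The first lay on contig 464 between bases 10 and 932, the other on contig 468 between 13 and 1046. Each was the only listed peak of its contig, so the length of sequence beyond it is not known here. The third, scoring 599, lay on contig 80 from 125163 to 126624, followed by a peak on contig 85 from 10691 to 11420 with a score of 526. These 4 were the only gained peaks with scores above 500, and none of the 4 contigs held any L vs. D peak. Next in order, a peak on contig 52 from 18205 to 21535, had a score of 313 and lay 48698 bp from the nearest L vs. D peak. All 5 stood apart from other gained peaks by more than 5 kb where their contig had another.

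The 5 widest peaks spanned 6433 to 6823 bp. The widest lay on contig 2 from 214023 to 220845 with a score of 96.7, followed by contig 16 from 92330 to 98882 and contig 50 from 289223 to 295723. The other two were both on contig 28, from 375527 to 382018 with a score of 199 and from 300526 to 306958 in a cluster of 5 gained peaks. None of the 5 overlapped an L vs. D peak. At the other end, the lowest scores in the list were 1.55 (contig 47, from 119112 to 119357), 1.65 (contig 23, from 511050 to 511269) and 1.85 (contig 85, from 5086 to 5457). A low score need not mean a place near the thresholds of the list, which were set on fold change and p. Regions just outside the list were not available here. Each of these 3 weak peaks lay in a cluster of 3 or more gained peaks.

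**Figure D1:**
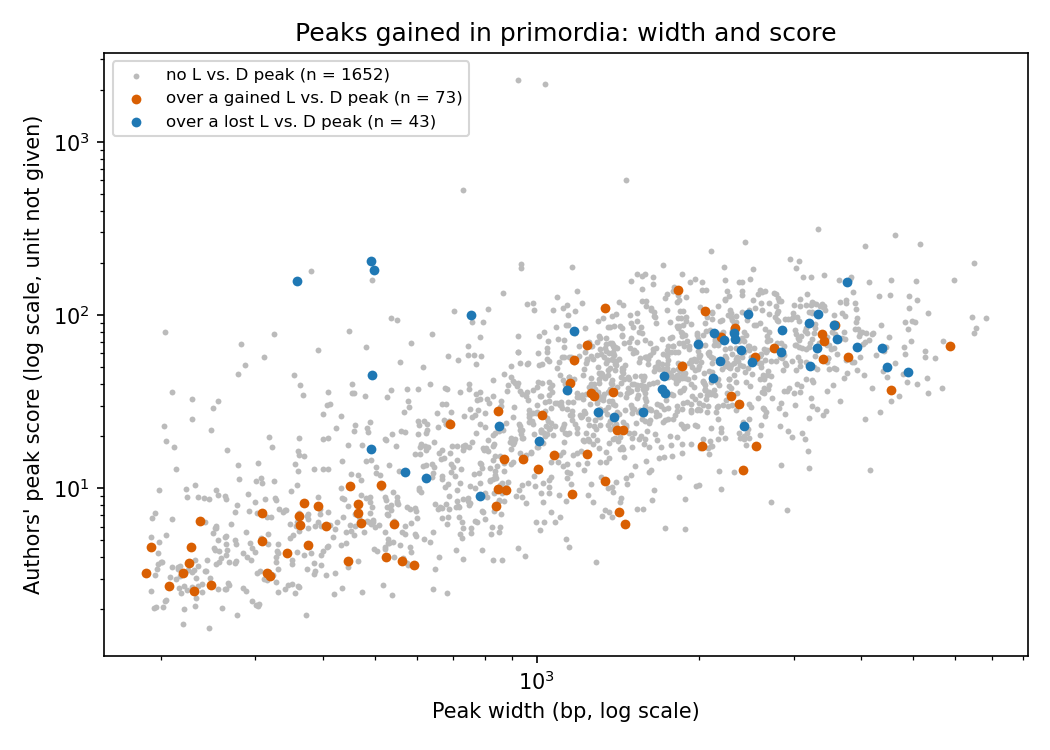
Width in bp and the authors' score of each of the 1768 gained peaks, both on log scales, with 1 point per peak coloured by its overlap with L vs. D peaks. Score rises with width, the 2 points above 2000 are the peaks at the starts of contigs 464 and 468, and the 43 peaks over lost L vs. D chromatin sit mostly at larger widths and scores than the 73 over gained L vs. D chromatin.

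Gained peaks were spread over 137 contigs and lost peaks over 244. The 10 contigs with the most gained peaks held 527 of them (29.8%). Contig 2 had the most with 101 gained beside 107 lost peaks, followed by contig 1 with 67 gained and 111 lost, contig 4 with 63 and 40, contig 3 with 49 and 50, and contig 10 with 48 and 30. Peak numbers run in order of contig and position through both P vs. D lists up to 11086, in all 3679 steps from one listed peak to the next, so that the numbers missing from the lists stand for regions that were numbered but not listed as different. Of these 11086 numbers, 15.9% were gained and 17.2% were lost, and these shares serve as the background for the counts of neighbours below.

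On the 39 contigs with at least 100 numbers, the gained share ranged from 9.30% on contig 5 to 24.3% on contig 41, with a median of 16.3%. Contig 41 had 27 gained and 14 lost among 111 numbers, and contig 28 had 33 gained and 12 lost among 136, also 24.3%. The lost share ranged more widely, from 8.47% on contig 33 to 31.3% on contig 27, with a median of 16.2%. Gained peaks outnumbered lost peaks on 17 of the 39 contigs, lost peaks outnumbered gained peaks on 19, and the counts were equal on 3. No large contig therefore lacked gained peaks, and none was given over to them.

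**Figure D2:**
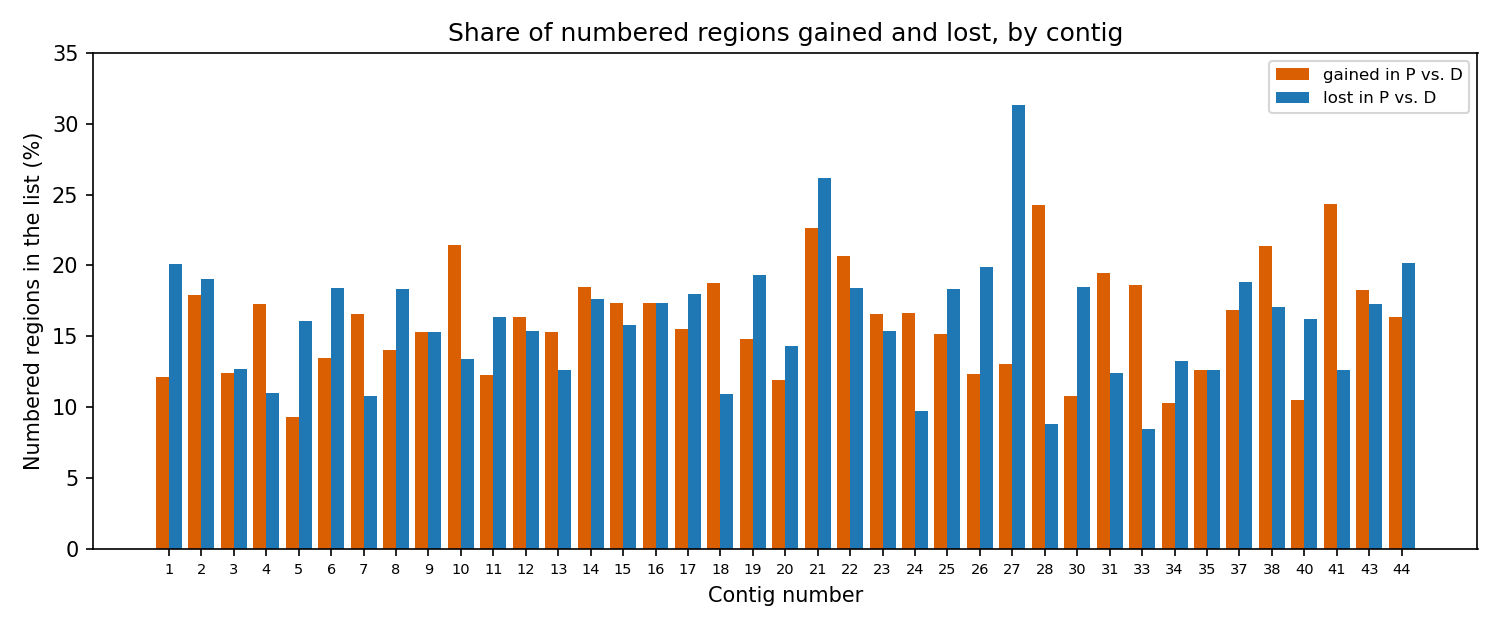
Share of the numbered regions of each contig, in percent, that was gained (orange) or lost (blue) in P vs. D, for the 39 contigs with at least 100 numbers. Contigs 28 and 41 have the highest gained shares at 24.3%, contig 27 has the highest lost share at 31.3%, and contig 5 has the lowest gained share at 9.30%.

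Contigs numbered above 100, which are not all short (listed peaks reached 78.7 kb on contig 477), held few gained peaks. Only 55 gained peaks (3.11%) lay on them, on 42 contigs, against 232 lost peaks (12.1%) on 146 contigs. The 55 had a median width of 647 bp and a median score of 23.7, so they were narrower than the list as a whole. Beside the peaks on contigs 464 and 468, the highest scores there were 236 (contig 131, from 42545 to 44651), 159 (contig 228, from 4 to 5958) and 158 (contig 120, from 14604 to 14962). A total of 20 gained peaks and 105 lost peaks started within 1 kb of the start of their contig, where a peak may be cut by the end of the assembled sequence. On 33 contigs all P vs. D peaks were gained, 46 peaks in all, and on 140 contigs all were lost.

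Gained peaks came in groups. Counted by number, the region that followed a gained peak along the contig was also gained for 605 of 1682 peaks, or 36.0% (95% Wilson interval 33.7% to 38.3%, for counting error only and with neighbours taken as independent), beside the 15.9% of all numbers. It was lost for 107 (6.36%), beside 17.2% of all numbers, and listed in neither direction for 970 (57.7%). Lost peaks were grouped in the same way, since the next region was lost for 770 of 1721 (44.7%) and gained for 117 (6.80%). Further along the contig the gained share fell to 25.9% after 2 regions, 20.6% after 3, 17.1% after 4 regions and 15.96% after 5. The lost share rose over the same steps from 6.36% to 9.74%, 11.6%, 13.5% and 15.02%. From 6 to 10 regions on the gained share stayed between 16.3% and 17.3%, so the excess of gained neighbours reached over about 3 or 4 regions.

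**Figure D3:**
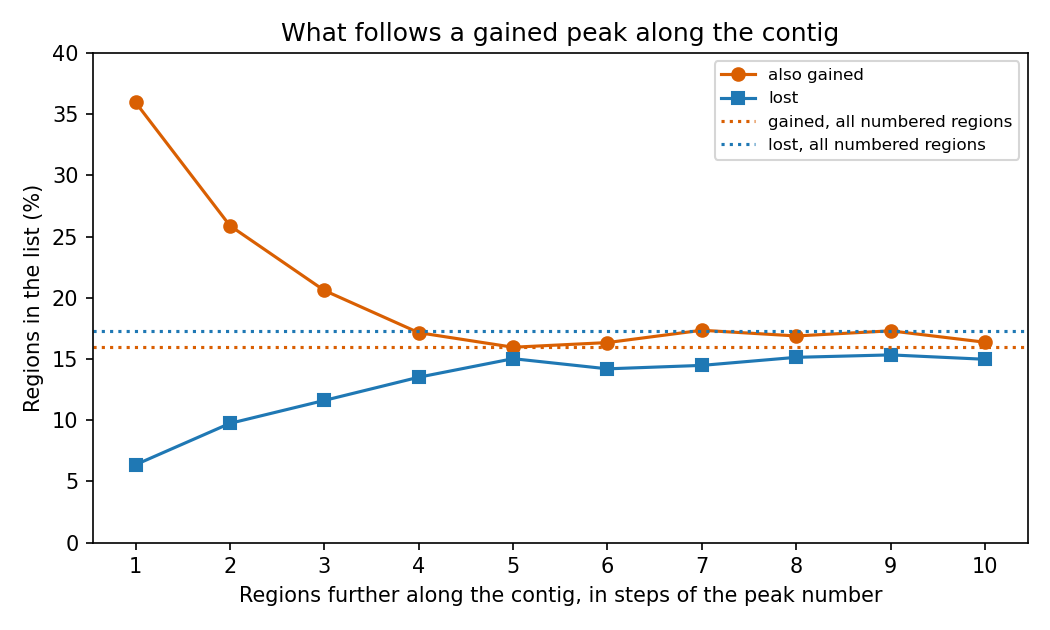
Percent of regions that were also gained (orange circles) or lost (blue squares) at 1 to 10 steps of the peak number after a gained peak, with dotted lines for the shares of all 11086 numbers. The gained share falls from 36.0% to 15.96% within 5 steps, where it meets its line, and the lost share climbs from 6.36% to 15.02%.

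Runs without any other numbered region between them took up 971 gained peaks (54.9%) in 366 runs, and 797 peaks (45.1%) had no gained neighbour by number. Most runs were short, with 216 of 2 peaks, 89 of 3, 41 of 4 and 15 of 5, then 3 of 6, 1 of 7 and 1 of 8. The run of 8 lay on contig 21 from 170099 to 186740. The run of 7 was found between 435670 and 455617 of contig 14. Consecutively numbered gained peaks were separated by a median of 1251 bp (quartiles 530 and 2399 bp, 605 gaps), and 94.0% of these gaps were at most 5 kb. The shortest gap was 56 bp and the longest 34619 bp. Gained neighbours with other numbered regions between them were a median of 19960.5 bp apart. Whether closely spaced peaks are separate elements or pieces of 1 open domain was not tested.

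Distance gave the same picture as numbering. For 1347 of the 1740 gained peaks with another P vs. D peak on the contig, the nearest one was also gained, which is 77.4%, beside the 48.0% of gained peaks among all P vs. D peaks. The median distance was 2634 bp to the nearest gained peak and 15516 bp to the nearest lost peak. Within 1 kb, 490 gained peaks had another gained peak and 33 had a lost peak. Gained and lost peaks never overlapped each other in P vs. D.

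When gained peaks at most 5 kb apart were joined, 688 peaks (38.9%) fell into 184 clusters of 3 or more on 75 contigs. A further 416 formed 208 pairs and 664 (37.6%) stood alone. A cluster spanned a median of 9071 bp. Lost peaks lay inside only 2 clusters, since 182 of the 184 held none, and in 112 clusters every number from the first to the last peak was gained. There were 102 clusters of 3 peaks, 49 of 4, 20 of 5, 8 of 6, 3 of 7, 1 of 8 and 1 of 9. Clustered peaks were narrower than peaks that stood alone, with a median of 1191.5 bp against 1421 bp, and scored lower, with a median of 25.6 against 38.6. The lost list had 615 peaks (32.2%) in 159 such clusters, the largest with 19 peaks.

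The cluster with the most gained peaks lay on contig 47 from 108914 to 136447. Its 9 peaks covered 59.1% of 27534 bp, with widths from 246 to 3465 bp, and 2 of its 11 numbers were not listed. Scores along it were 45.3, 14.2, 15.9, 36.6, 1.55, 40.8, 28.4, 42.5 and 94.7, so the peak with the lowest score of the whole list lay between peaks of 36.6 and 40.8. The next cluster was the run of 8 on contig 21, which covered 44.8% of 16642 bp. Its scores were 7.07, 36.0, 37.2, 19.1, 6.50, 7.51, 1.85 and 27.3, all below 40. Clusters of 7 peaks lay on contigs 3, 14 and 66. The one on contig 3, from 989295 to 1002338, covered 52.0% of 13044 bp and was led by 1 peak, since its scores were 11.9, 5.42, 107.0, 19.3, 14.3, 13.8 and 14.4. Tied with it were the run of 7 on contig 14, which covered 54.5% of 19948 bp, and a cluster on contig 66 from 154494 to 177227, which covered 39.1% of 22734 bp. None of these 5 clusters contained a lost P vs. D peak, and the one on contig 14 alone contained L vs. D peaks, both of them lost.

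**Figure D4:**
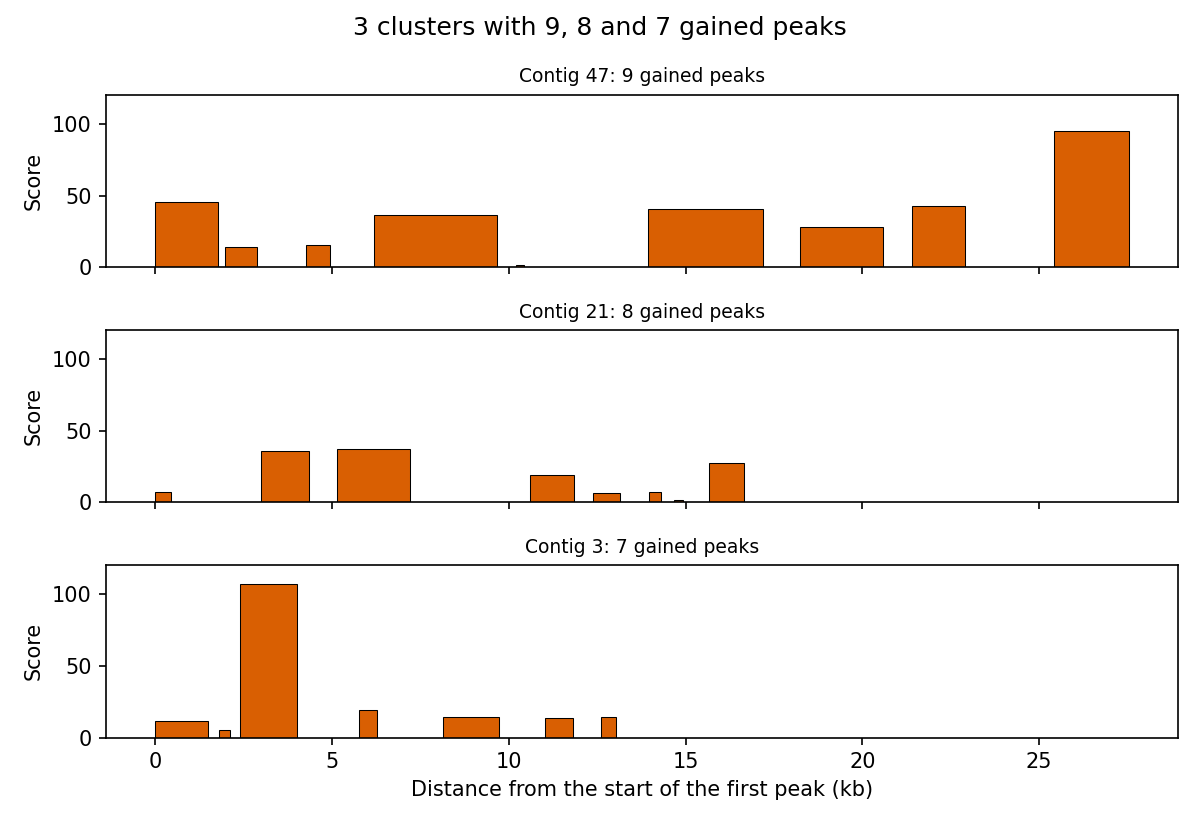
The clusters of 9 and 8 gained peaks and the first by contig of the 3 with 7, drawn to scale as boxes along the distance in kb from the start of the first peak, with the authors' score as the height. Box heights vary within each cluster, from 1.55 to 94.7 on contig 47, from 1.85 to 37.2 on contig 21 and from 5.42 to 107.0 on contig 3.

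The L vs. D lists show which of these regions were also listed as changed after 1 h of light, with 234 gained and 273 lost peaks. A region outside these lists has no value there, so it cannot be called unchanged. L vs. D and P vs. D share the same D libraries, so an overlap between their lists is not independent evidence, and the counts follow from the way the lists were split. By an overlap of at least 1 bp, 73 gained peaks (4.13%) lay over a gained L vs. D peak, and they took up 77 of the 234 gained L vs. D peaks (32.9%). Another 43 (2.43%) lay over a lost L vs. D peak, and they took up 48 of the 273 lost L vs. D peaks (17.6%). No gained peak touched both kinds. Among all 12778 L vs. D numbers, 1.83% were gained and 2.14% lost, so the share over lost L vs. D peaks was near that over all regions, although wide peaks also have more room to touch another. Of the peaks lost in primordia, 1 lay over a gained L vs. D peak (0.0523%) and 148 over a lost one (7.74%).

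The 1652 gained peaks apart from any L vs. D peak resembled the whole list, with a median width of 1324.5 bp and a median score of 31.2, and lay on 135 contigs. Of these, 120 were on 51 contigs without any L vs. D peak. For the other 1532 the nearest L vs. D peak was a median of 31625.5 bp away, with quartiles of 10483 and 67504 bp. Only 65 had one within 1 kb, and 230 were more than 100 kb from any. The farthest was on contig 37 from 14071 to 17630, at 404637 bp, with a width of 3560 bp and a score of 39.2. Among these 1652 peaks were the 5 with the highest scores and the 5 widest of the list.

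The 73 peaks over gained L vs. D chromatin were the narrower and weaker of the overlapping sets. Their median width was 944 bp (quartiles 392 and 1833 bp) and their median score 10.95 (quartiles 6.14 and 35.9), on 40 contigs, and 35 of the 73 (47.9%) were in clusters of 3 or more. They formed 78 pairs with L vs. D peaks, and in 61 of the pairs the P vs. D peak had the higher score. The lists differ in score level, with medians of 31.1 for gained P vs. D and 3.77 for gained L vs. D peaks. Such pairs therefore do not compare the sizes of 2 changes. In 28 pairs the L vs. D peak lay wholly inside the P vs. D peak, and in 22 it was the wider one. The highest scores among the 73 were 139 (contig 25, from 588946 to 590778), 110 (contig 45, from 118893 to 120229), 105 (contig 1, from 2152294 to 2154344), 87.7 (contig 16, from 763980 to 767569) and 84.3 (contig 1, from 1487876 to 1490210). Those on contigs 25, 45 and 16 lay over peaks that the study had assigned to genes, described further on.

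Several narrow openings after 1 h of light lay wholly or partly inside single wider openings of primordia. On contig 24, 3 gained L vs. D peaks of 361, 359 and 155 bp lay inside 1 gained P vs. D peak of 1384 bp, from 364695 to 366078. On contigs 6, 16 and 17, pairs of gained L vs. D peaks lay over single gained P vs. D peaks from 862761 to 863764, from 763980 to 767569 and from 480938 to 482013. Consecutively numbered gained peaks both lay over gained L vs. D peaks in 11 cases. Contig 16 had 4 peaks over gained L vs. D chromatin and 1 over lost.

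The 43 peaks over lost L vs. D chromatin were regions listed as less open after 1 h of light than in darkness and as more open in primordia than in darkness. They were wide and scored high, with a median width of 2134 bp (quartiles 1072.5 and 3030 bp) and a median score of 61.4 (quartiles 36.2 and 79.8), and none scored below 9.02. In 46 of their 48 pairs the L vs. D peak lay wholly inside the P vs. D peak, and in all 48 the P vs. D peak had the higher score. Here too the lists differ in level, with a median score of 11.6 over all lost L vs. D peaks. The scores of a pair therefore do not compare sizes of change. The region on contig 30 from 243845 to 246689 had the same bounds in both lists, with scores of 61.4 in P vs. D and 18.5 in L vs. D. They lay on 26 contigs, with 4 each on contigs 3, 14 and 26, none of which had a peak over gained L vs. D chromatin.

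Of these 43, the 3 with the highest scores were narrow, and their lost L vs. D peaks filled most of them. The peak on contig 5 from 700782 to 701274 scored 205, and the lost L vs. D peak inside it scored 48.7. The peak on contig 38 from 171101 to 171598 scored 183 and the one inside it 114. The peak on contig 120 from 14604 to 14962 scored 158 and the one inside it 65.8. These were followed by contig 26 from 441846 to 445609 with 156, a peak of 3764 bp, and contig 14 from 295478 to 297948 with 101. On contig 14 the peaks from 451439 to 453628 and from 453885 to 455617, neighbours in the run of 7, both lay over lost L vs. D peaks. On contig 26 the peak from 215485 to 218339 and the one from 223481 to 225606 both did so as well, with 84.5% and 98.6% of their widths covered.

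In 5 cases 1 gained peak lay over 2 lost L vs. D peaks. These were contig 3 from 73469 to 76673, contig 7 from 406176 to 407749, contig 13 from 289105 to 292423, contig 21 from 540415 to 544788 and contig 36 from 409206 to 411199, with scores of 89.6, 27.5, 65.0, 64.8 and 68.3. Both kinds of overlap occurred on 14 contigs, in different peaks.

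Genes could be linked to gained peaks only through the study's own assignment of single L vs. D or P vs. D peaks to 30 genes. It had selected these genes for agreement of chromatin and RNA in both L vs. D and P vs. D. Of them, 17 had higher RNA (coded U) and 13 lower RNA (coded D with a number). For 16 of the 17 U genes, the assigned peak came from the gained L vs. D list and overlapped a gained P vs. D peak. They were linked to 17 gained peaks, 0.962% of the list, with widths from 207 to 3590 bp and scores from 2.72 to 139. The exception was U1, named dehydrogenase patE, whose L vs. D peak lay 313 bp from the nearest gained P vs. D peak. None of the 13 D genes was linked, and the nearest gained peak was 1611 to 43275 bp from their regions. The regions of all D genes but D1, D2 and D3 came from the lost P vs. D list, which by construction shares no region with the gained list, and those of D1, D2 and D3 came from lost L vs. D peaks. The U genes were selected on these same libraries for higher RNA and gained peaks in both comparisons. Their overlap with gained peaks and their higher RNA in P and L therefore follow from the selection. The RNA values below describe them and are not independent evidence that gained peaks and RNA go together.

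In P vs. D, 11 of the 16 linked genes rose and 0 fell by edgeR's quasi-likelihood test (Benjamini-Hochberg adjusted p up to 0.05, fold over 1.2), where 1.33% of the 10606 genes tested were called higher and 1.97% lower. The count was 4, 5 and 5 without D replicates 1, 2 and 3 and 7 without P replicate 1. DESeq2 called 13 of them higher and 0 lower, with 4.78% of all genes called higher and 5.87% lower. Their log2 fold changes ranged from 1.10 to 6.63 with a median of 4.26, beside a median of 0.07 over all genes tested. All 16 genes had every P library above every D library, which 12.5% of all genes had. By the study's account, qRT-PCR gave patterns similar to sequencing for these genes except U9, U14 and U16. The supplement prints the same primer pair for U2 and U3, so as printed the qRT-PCR cannot tell these genes apart. Levels are given as CPM, the count of a gene relative to the TMM-scaled total of its library.

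In L vs. D, with the same D libraries, edgeR called 0 of the 16, and 0% of 10627 genes in either direction. At an unadjusted edgeR p below 0.05, 14 of the 16 were higher, beside 683 of all 10627 genes. The lowest edgeR adjusted p of the 16 was 0.0546. DESeq2 called 12 of the 16 higher and 0 lower, with 1.78% of all genes called higher and 1.85% lower. Their median log2 fold change was 3.08, with a range from 0.20 to 5.95, beside a median of 0.02 over all genes tested by edgeR. In 14 of the 16 every L library was above every D library, which 9.56% of all genes had, and the exceptions were U7 and U9. Only U16 and U17 had every P library above every L library. The share of all genes with this pattern was not computed, so the count has no background. For the other 14 the L and P libraries overlapped.

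The linked gene with the largest change was U5 (Gglean002890), a protein with no known function, whose assigned region on contig 16 lay wholly inside the gained peak from 763980 to 767569 with a score of 87.7. It had 2.56, 2.37 and 2.43 CPM in D, 68.4, 244 and 143 CPM in L libraries and 169, 427 and 122 CPM in P. All light and primordia libraries were far above darkness, and L and P overlapped. Primordia exceeded darkness by 6.63 on the log2 scale (SE 0.59, edgeR adjusted p = 0.0042), and by 5.89 without P replicate 2. The same gained peak also lay over a region assigned to U4 (Gglean002720), another protein with no known function. U4 had 3 counts in all D libraries together, 0.572, 0.957 and 0.595 CPM in L libraries and 0.719, 0.672 and 1.23 CPM in P, and edgeR called it higher in P vs. D (adjusted p = 0.0275), with no fold given because D was close to 0. Its edgeR adjusted p was 0.0560 to 0.102 when any library but P replicate 2 was left out.

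The stretch around U4 and U5 held 4 consecutive gained peaks, from 760731 to 761970, from 763980 to 767569, from 770096 to 772390 and from 772846 to 773208, with scores of 67.2, 87.7, 33.9 and 6.14. The gaps between them were 2009, 2526 and 455 bp. All 4 overlapped gained L vs. D peaks, of which 5 lay in the stretch. Every member of this cluster in primordia therefore lay over chromatin that was also listed as gained after 1 h of light.

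U17 (Gglean012354), named dehydrogenase citC after an enzyme of citrinin synthesis in *Monascus*, was linked to a gained peak on contig 10 from 874380 to 875226 with a score of 27.8, in a cluster of 3. Its RNA was at 4.67, 11.4 and 9.52 CPM in D, 30.8, 87.2 and 56.9 CPM in L libraries and 996, 464 and 504 CPM in P. The 3 groups did not overlap, with L between D and P. It rose from D to P by 6.27 (log2; SE 0.56, edgeR adjusted p = 0.0042). U16 (Gglean010678), named cysteine proteinase 1, a protein-degrading enzyme, was linked to contig 65 from 62652 to 65201 with a score of 17.6. It also had 3 groups without overlap, at 0.934, 1.77 and 2.06 CPM in D, 3.18, 14.3 and 10.4 CPM in L libraries and 20.6, 14.96 and 57.8 CPM in P, and rose in P vs. D by 4.29 (log2; SE 0.61, edgeR adjusted p = 0.0134). The edgeR adjusted p of U16 was 0.0790 without D replicate 1 and 0.0548 without D replicate 2, and its log2 fold change was 3.47 without P replicate 3.

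Among regulators and light sensing, U15 (Gglean010591) is named white collar 1 protein, the blue-light receptor and transcription factor of *Neurospora* and many other fungi. It was linked to a pair of gained peaks on contig 63, a narrow one of 207 bp from 60915 to 61121 with a score of 2.72 and a wide one of 3394 bp from 62819 to 66212 with 77.4. The study annotated the L vs. D region under the wide peak as promoter and the one under the narrow peak as exon. Its RNA was at 127, 90.6 and 96.8 CPM in D, 201, 399.7 and 343 CPM in L libraries and 1064, 231 and 984 CPM in P. P replicate 2 lay among the L libraries and the other two P libraries far above them. It rose in P vs. D by 2.86 on the log2 scale (SE 0.58, edgeR adjusted p = 0.0433), a call kept only when P replicate 2 was left out (adjusted p 0.0772 to 0.183 without any of the others). U11 (Gglean007619), named gluconate transport inducer 1 after a regulator of gluconate uptake in fission yeast, was linked to contig 39 from 409835 to 413235 with a score of 56.1. It had 3.54, 7.65 and 5.81 CPM in D, 44.9, 99.3 and 62.2 CPM in L libraries and 205, 319.8 and 87.3 CPM in P, and rose in P vs. D by 5.19 (log2; SE 0.58, edgeR adjusted p = 0.0079).

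U10 (Gglean005727) is named fruiting body protein SC4, a hydrophobin that in *Schizophyllum* coats air-filled parts of the fruiting body. The gained peak linked to it, on contig 28 from 271790 to 274544 with a score of 64.2, stood alone, and the study annotated the L vs. D region inside it as promoter. Its RNA was at 63.1, 35.2 and 231 CPM in D, 368, 5105 and 2293 CPM in L libraries and 1686, 14884 and 1673 CPM in P. The D libraries lay below all others, but P replicate 2 was far above the other two P libraries. Its log2 fold change of 5.83 (SE 1.31) was not called by edgeR (adjusted p = 0.0615), and DESeq2 gave it no p. Without P replicate 2 it was 3.94 and was called (edgeR adjusted p = 0.0334).

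Enzymes and hypothetical proteins made up most of the rest that rose. U8 (Gglean003319), named phospholipid methyltransferase, an enzyme of membrane lipid synthesis, was linked to contig 18 from 448072 to 450097 with a score of 17.5. It had 1.47 to 6.02 CPM in D, 9.44 to 184 CPM in L libraries and 25.7 to 213 CPM in P, a rise over D of 4.78 (log2; SE 0.94, edgeR adjusted p = 0.0398). The rise of U8 was 3.38 without P replicate 2 and 5.38 without D replicate 3, and it was not called without any 1 of the D replicates (edgeR adjusted p 0.0902 to 0.167). U14 (Gglean008871), a putative methyltransferase-like protein, was linked to a weak peak on contig 46 from 71517 to 72040 with a score of 4.04. It had 92.1 to 159.6 CPM in D, 333 to 2395 CPM in L libraries and 1411 to 5998 CPM in P, with a log2 fold change of 4.96 (SE 0.69, edgeR adjusted p = 0.0129). It was 4.36 without P replicate 2, and U14 was not called without any 1 of the D replicates either (edgeR adjusted p 0.0547 to 0.0951).

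U13 (Gglean008796), a hypothetical protein linked to the peak on contig 45 with a score of 110, had close D libraries of 11.8, 11.5 and 10.6 CPM, L libraries of 25.5, 176 and 106 CPM and P libraries of 145, 149 and 72.6 CPM. It rose from D to P by 3.45 (log2; SE 0.34, edgeR adjusted p = 0.0050). U2 (Gglean002577), linked to contig 15 from 56203 to 57049 with a score of 9.95, had 3.51 to 15.04 CPM in D, 24.9 to 108 CPM in L libraries and 71.6 to 517 CPM in P. It is also a hypothetical protein and rose by 5.14 (log2; SE 0.87, edgeR adjusted p = 0.0252). U7 (Gglean003249), a hypothetical protein linked to contig 18 from 9795 to 11073 with a score of 34.2, rose least of the called genes, by 1.48 (log2; SE 0.27, edgeR adjusted p = 0.0296), from 54.3 to 83.6 CPM in D to 154 to 209 CPM in P. U2 and U7 were not called without any 1 of the D replicates or P replicate 1, where the edgeR adjusted p was 0.0668 to 0.1005 for U2 and 0.0616 to 0.172 for U7.

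The other 4 genes that edgeR did not call had every P library above every D library as well. U9 (Gglean005067), an SH3 domain protein, was linked to the peak with the highest score of the 17, 139 on contig 25, and had 240.0 to 311 CPM in D, 201 to 378 CPM in L libraries and 321 to 1867 CPM in P (edgeR adjusted p = 0.244), with a log2 fold change of 1.66 that was 0.35 without P replicate 1. U12 (Gglean008695), a protein with a LON peptidase domain and a RING finger, linked to contig 44 from 267862 to 270062 with a score of 74.9, had 64.3 to 77.1 CPM in D and 109, 907 and 2684 CPM in P, where P replicate 2 was the lowest (edgeR adjusted p = 0.0774). DESeq2 called U12 higher (adjusted p = 1.5e-05), and edgeR did so without P replicate 2 (adjusted p = 0.0068). U3 (Gglean002700), named ATM1, a mitochondrial transporter needed for iron-sulfur proteins in yeast, was linked to contig 146 from 7767 to 9175 with a score of 21.7. It had 6.14 to 84.2 CPM in D and 294 to 612 CPM in P (edgeR adjusted p = 0.0935), and DESeq2 called it higher (adjusted p = 0.00018), as edgeR did without D replicate 2 (adjusted p = 0.0182). U6 (Gglean003085), the splicing factor CWC22 linked to contig 17 from 480938 to 482013, had the smallest log2 fold change of the set, 1.10 (SE 0.36, edgeR adjusted p = 0.148 and DESeq2 adjusted p = 0.0521), from 2.11 to 3.17 CPM in D to 4.50 to 8.11 CPM in P.

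**Figure D5:**
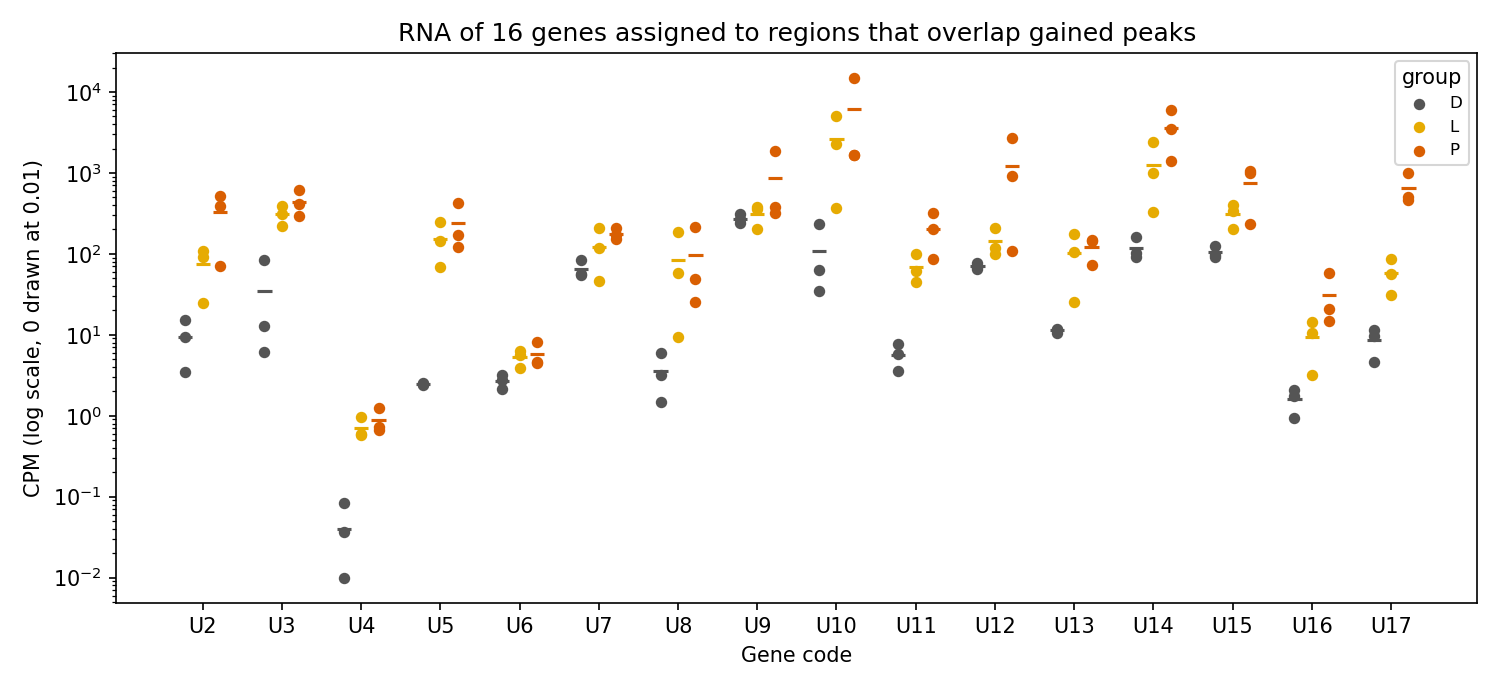
RNA level in CPM on a log scale of the 16 linked genes in each of the 3 D, 3 L and 3 P libraries, with bars at the group means and a level of 0 drawn at 0.01. Every gene has its P libraries above its D libraries, and L and P overlap for all but U16 and U17.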

How the data were processed

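The authors trimmed ATAC-seq reads with cutadapt, mapped them to the SP-C assembly with BWA 0.7.10, used BEDTools to merge samples, and ran MACS2 2.1.1 for peak calling. The deposited lists of differential peaks hold a score per peak. Methods name no shift of read ends or removal of duplicates. For RNA-seq the authors deposited counts per gene from STAR and HTSeq 0.6.1, with 20798190 to 27706995 counts per library. Their size-factor-scaled values, log2 fold changes and p-values were not used, and 0 columns of unknown samples were present. Use of strand in counting is not given in the sources at hand.

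Peaks were compared by position (Python 3.11.15, pandas 2.3.3). RNA was tested on raw counts with edgeR 4.0.16 (TMM, filterByExpr, quasi-likelihood test, Benjamini-Hochberg) and DESeq2 1.42.0 in R 4.3.3. Only the edgeR fit for P vs. D was also run on simulated counts. The SE is the absolute unshrunk log2 fold change divided by the square root of F. Members, lists and gene links were chosen with earlier results of these data known. Named peaks were the 5 highest, 5 widest and 3 lowest in score, the 5 highest per overlap class, and the 3 clusters with the most peaks (ties to the earlier contig); of the 43 over lost L vs. D peaks, the others are given by range. Linked genes were all named. Other peaks were named after their values were seen. The share for the next numbered region was also added after the data were seen. Reading the numbers missing from the lists as regions not listed is inferred from the numbering. Replicate numbers did not pair the RNA libraries.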

Additional observations from a re-analysis of the deposited data

How the results depend on the processing

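Of 42 alternatives over 10 results, 26 left the value near its main value and 16 moved it. At a score of at least 5, the median width of the gained peaks was 1423.5 bp, the share with a gained nearest peak was 86.3% (gained peaks then made up 65.3% of the listed P vs. D peaks), and 37 peaks lay over gained L vs. D peaks. With a reciprocal overlap of 50% that count was 39. Clusters held 318 peaks at a gap of at most 2 kb. The count of linked genes called by edgeR in P vs. D was 6 with the replicate number as a block, where only the number is shared (correlations of deviations 0.02, -0.39 and -0.29 for numbers 1, 2 and 3), and 4 to 13 with 1 library left out. In L vs. D it was 12 by DESeq2, 1 each with library totals, without a filter and with all 9 libraries in a single fit, and 0 to 3 with 1 library left out (3 without L replicate 1 and 1 without L replicate 2); with the replicate block it was 0. The cause was not tested. U5, U11, U13 and U17 were called in P vs. D under all 12 alternatives. The peak lists hold no depth or value per library, so the precision of a single peak is unknown. By the study's own summary of the ATAC-seq reads, a smaller share mapped in both P libraries than in the D libraries. D replicate 2 had the fewest mapped reads of all ATAC-seq libraries. What this did to the lists was not tested.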
